A study of Mus musculus with 30 samples.

Results

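The kidney is the organ in which filtered salt, sugar, amino acids and organic acids are recovered or secreted, segment by segment along the nephron. This is an account of how its transcriptome differed between mice fed the western diet (WD) and mice fed the control diet (CD), 10 of the 30 libraries of the series: 5 kidneys of the WD group and 5 of the CD group, taken by their tissue, diet and treatment labels. All mice were male C57BL/6J mice in thermoneutral housing (30 to 32 °C) from 6 weeks of age. At Week 7 they were given the CD or the WD, which is enriched in fat and sucrose, and both groups of this comparison received water by gavage 3 times per week. They were euthanised at Week 24 after a fast of 3 h. Each library came from 1 mouse. Another kidney group of 5 mice on the WD received CHP, the cyclic dipeptide cyclo(His-Pro), in place of water (WD+CHP); it is not compared here but entered the fit, the filter on low counts and the estimate of the spread. The time of day of euthanasia and any batch of extraction or sequencing are not given in the sources used here. Diet is the only difference the labels give between the groups, so fat, sucrose and body weight cannot be told apart within it.

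In the filtering unit, podocytes hold back protein while water and small solutes pass. The proximal tubule then takes up nearly all filtered glucose, amino acids, phosphate and protein, secretes organic anions and cations, makes glucose and ammonia, activates vitamin D, and lives on fatty acid oxidation. The thick ascending limb and the distal convoluted tubule take up salt, and the connecting tubule and collecting duct adjust sodium, water and acid under hormonal control. RNA of whole kidney reads all these cells together, so that fewer cells of a type and less RNA per cell cannot be told apart.

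The sample labels give frozen liver as the starting tissue of these libraries, whereas the study's methods name kidney. The defining markers of the kidney were therefore read first. All 10 tested markers of podocytes, all 10 of the first proximal segments and all 9 of the thick ascending limb passed the filter on low counts, and the summed level of the proximal markers lay between 11777 and 13547 CPM (counts scaled to library size) in the 10 libraries. Total counts ranged from 37452693 to 38211422, and mitochondrial genes took 17.8% to 20.9% of them. A single library stood apart. WD replicate 5 lay at 29.2 on the first principal component of the most variable genes, on which no other library exceeded 5.43. It held higher levels of *Alb* and *Apoa1* than the others. *Alb*, which encodes serum albumin, reached 424 CPM there and 81.4 in CD replicate 1, against 8.98 to 21.0 in the other 8 libraries. *Apoa1*, an apolipoprotein made by liver and gut, was at 55.4 and 8.85 CPM in those libraries and at 0.700 to 1.19 in the others. Of the 7 hepatocyte markers tested, 2 rose and 1 fell (42.9% called), and their median of 0.40 was -0.10 without WD replicate 5. *Ttr*, the carrier transthyretin, was at 119, 115, 134, 102 and 60.4 CPM in CD and at 171, 127, 200.1, 215 and 244 CPM in WD, rose by 0.85 ± 0.19, was called with any 1 library left out, and kept its call without both CD replicate 1 and WD replicate 5 (adjusted p = 0.0326). *Serpina1a*, an antitrypsin, rose by 0.87 ± 0.23, a call lost with omission of CD replicate 1 or WD replicate 1 or 3 (adjusted p up to 0.0567, and 0.0927 without both). *Fga*, a fibrinogen chain, fell by 1.04 ± 0.30, a call lost with omission of any 1 library except CD replicate 2 or WD replicate 5 (adjusted p up to 0.109, and 0.0697 without both). Calls of named genes that were lost when a library, or both of these, was left out are given as such beside the result. The part of liver RNA in any other result was not tested.

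**Figure D1:**
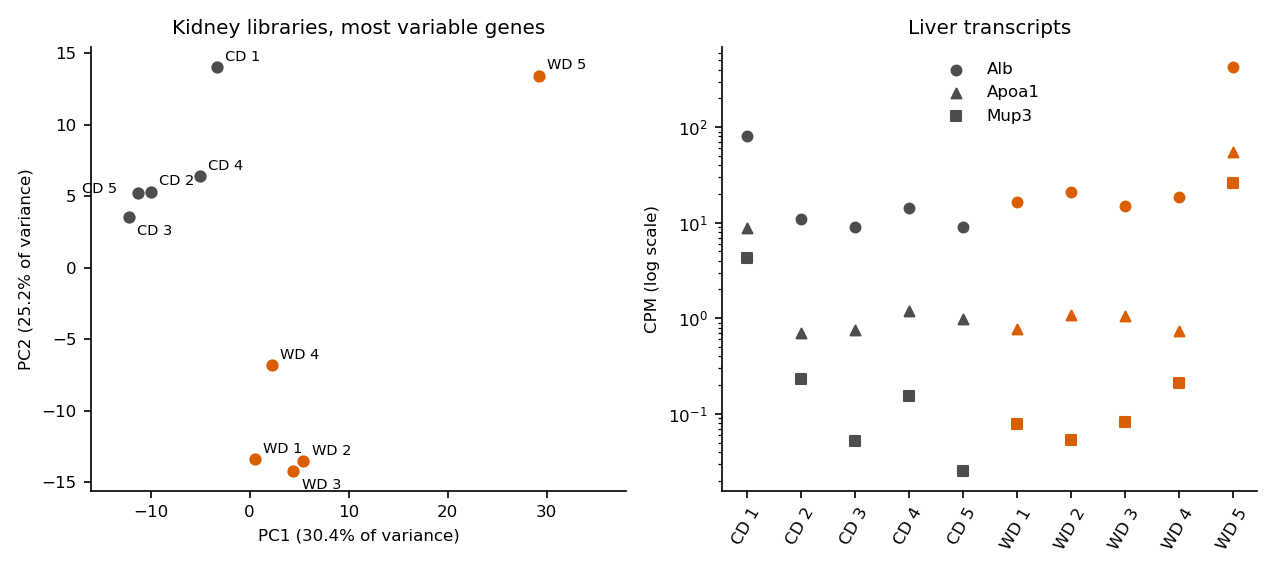
Left, the first and second principal component of the 10 kidney libraries, in log2 CPM units, with CD in grey and WD in orange. Right, CPM (log scale) of the liver transcripts Alb, Apoa1 and Mup3 in each library. WD replicate 5 lies alone at 29.2 on the first component and highest for all 3 transcripts, and CD replicate 1 comes next for them.

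The diets differed in many genes by a little and in few by much. Of 17120 genes tested, 1652 differed between the diets at an adjusted p under 0.05 (9.65%). Of these, 791 were higher in WD (4.62%) and 861 lower (5.03%). The split was 631 and 970 with total counts as the scale, and 779 and 1058 with a correction for gene length and GC content. A fit of the 10 CD and WD libraries alone called 1559 genes, 1402 of them shared with the 1652. The median size of a called change was 0.33 on the log2 scale, and 165 genes changed by more than 2-fold, 96 of them upwards and 69 downwards. The values of WD and CD libraries did not overlap for 1489 genes (8.7%), 1140 of which were also called. Without WD replicate 5 the count was 1401 genes, 1263 of them among the 1652, and without CD replicate 1 it was 1142. Leaving out both gave 1051, of which 929 were among the 1652. With each of the 10 libraries left out in turn, 845 genes (4.94%) were called every time. Across all genes the median log2 fold change was 0.0015 and 50.4% were positive.

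**Figure D2:**
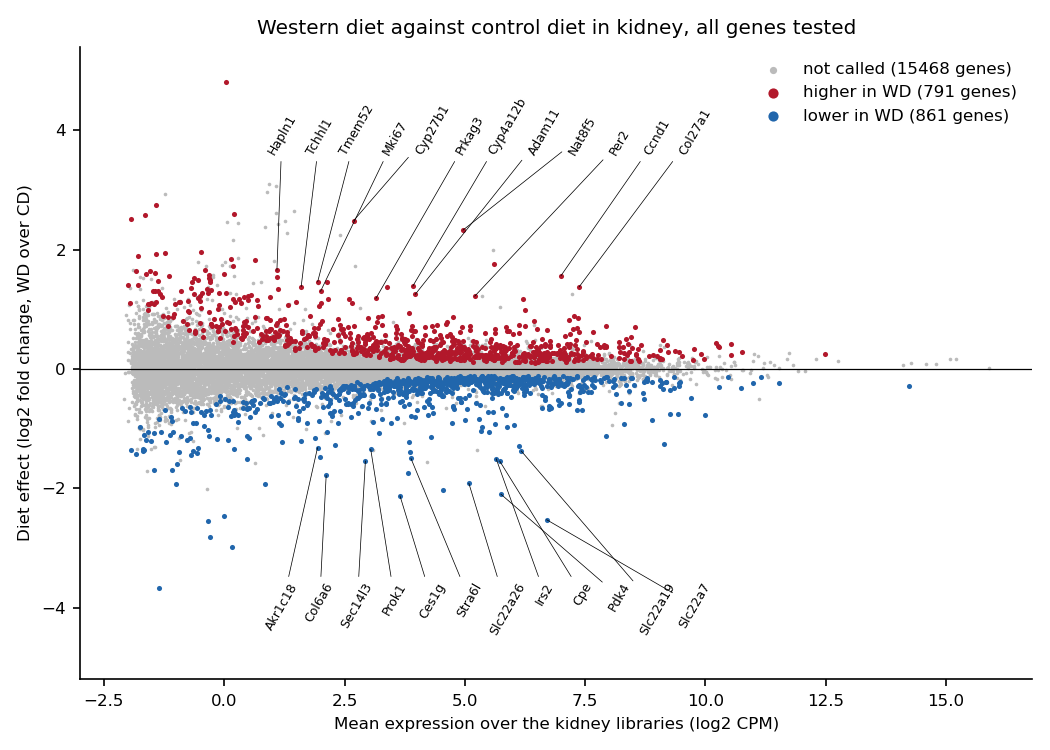
Diet effect (log2 fold change, WD over CD) of the 17120 genes tested against their mean expression in log2 CPM, each point a gene. The 791 genes called higher in WD are red, the 861 called lower are blue, and the 12 rises and 12 falls named by rule carry their symbols.

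The rises and falls named here are the 12 of each sign with the greatest fold change among called genes with a mean of at least 1 log2 CPM, no overlap between the groups and a gene name other than a clone or predicted-gene name. Positions are those of the GENCODE annotation of GRCm38. *Cyp27b1* (chr10:127048250-127053006, plus strand), the 1-alpha-hydroxylase that makes active vitamin D, was measured at 1.34, 1.32, 0.994, 3.20 and 3.79 CPM in the CD libraries. In the WD libraries it was at 11.6, 23.3, 12.4, 6.20 and 6.43 CPM, so the groups did not overlap and WD replicate 2 was the highest. The log2 fold change was 2.49 ± 0.42 (SE, n = 5 per group), with an adjusted p of 0.00186. *Nat8f5* (chr6:85817218-85820972, minus strand), of a family of N-acetyltransferase genes that lie side by side, was at 8.75, 11.3, 10.5, 8.28 and 4.15 CPM in CD and at 45.0, 40.5, 41.6, 43.1 and 45.6 CPM in WD. Its WD values were close to each other and all of them above the CD values. This gave a log2 fold change of 2.33 ± 0.22 (adjusted p = 2.09e-05). Reads may be split between such close copies, so the share of each copy is uncertain. *Ccnd1* (chr7:144929931-144939925, minus strand), the cyclin D1 of the G1 phase, was at 57.0, 57.3, 56.8, 55.2 and 55.0 CPM in CD and at 209, 176, 152, 149.9 and 144 CPM in WD. The CD libraries were nearly level and all WD libraries lay above them. WD minus CD was 1.56 ± 0.16 in log2 units (adjusted p = 4.03e-05).

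Further genes rose. *Col27a1*, a fibrillar collagen chain (chr4:63214004-63334991, plus strand), was at 71.2 to 97.4 CPM in CD and at 164 to 282 CPM in WD. In edgeR the effect was 1.38 ± 0.14 (adjusted p = 3.94e-05). *Prkag3*, a regulatory subunit of the energy sensor AMPK (chr1:74738922-74749221, minus strand), was at 3.94 to 5.75 CPM in CD and at 9.30 to 13.0 CPM in WD. The effect of the WD was 1.18 ± 0.15, adjusted p = 0.000226. *Hapln1*, a link protein of the pericellular matrix, rose by 1.66 ± 0.36 on the log2 scale, *Tmem52* by 1.46 ± 0.14, *Tchhl1* by 1.38 ± 0.16 and *Adam11*, an ADAM family member, by 1.25 ± 0.22. *Cyp4a12b*, an omega-hydroxylase with a near-identical neighbour, rose by 1.39 ± 0.33. *Mki67* and *Per2*, the other rises, are described with the cell cycle and the clock.

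Among the falls, *Slc22a7* (chr17:46432183-46438457, minus strand), an organic anion transporter, was at 174, 179.6, 226, 178 and 180.3 CPM in CD and at 30.1, 23.0, 39.8, 27.0 and 42.7 CPM in WD. Every WD library was far below every CD library. A log2 fold change of -2.53 ± 0.35 resulted (adjusted p = 0.00047). *Pdk4* (chr6:5483351-5496309, minus strand), a kinase that holds pyruvate back from oxidation when fatty acids are burnt, was at 135, 106, 110.4, 79.4 and 79.5 CPM in CD. In WD it was at 29.7, 27.2, 30.1, 14.96 and 17.1 CPM, lowest in replicates 4 and 5. With its SE the change was -2.10 ± 0.25 (adjusted p = 0.000157). *Irs2* (chr8:10984681-11008458, minus strand), an adaptor of the insulin receptor, was at 168, 106, 42.7, 51.1 and 57.6 CPM in CD and at 35.2, 34.2, 25.0, 25.3 and 30.2 CPM in WD. CD replicates 1 and 2 were well above the other CD libraries, and the remaining CD values still lay above all WD values. For *Irs2* the log2 fold change came to -1.504 ± 0.29 (adjusted p = 0.00483).

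*Ces1g*, a carboxylesterase of a cluster of close paralogs, changed by -2.13 ± 0.37 on the log2 scale, *Col6a6*, a collagen VI chain, by -1.79 ± 0.29, and *Cpe*, a carboxypeptidase that trims peptide hormones, by -1.54 ± 0.23. *Sec14l3*, which encodes a lipid-binding protein, changed by -1.54 ± 0.21. *Stra6l*, a retinol-binding protein receptor, changed by -1.500 ± 0.22, *Prok1*, a secreted prokineticin, by -1.35 ± 0.20, and *Akr1c18*, a hydroxysteroid dehydrogenase, by -1.32 ± 0.39. All of these falls were called with any 1 library left out, apart from *Akr1c18*, which was called only when CD replicate 5 or WD replicate 5 was the library left out and reached an adjusted p of 0.0974, and of 0.0584 without both CD replicate 1 and WD replicate 5. *Slc22a19* and *Slc22a26* complete the falls and are described with the organic ion transporters.

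Among the called genes with the highest level, *Kap*, *Slc27a2*, *Gapdh*, *Slc12a3* and *Cyp2e1* are described below with their groups. *Mep1a*, a brush border protease, was at 1913 to 2308 CPM in CD and at 1689 to 1942 CPM in WD, a change of -0.23 ± 0.06, and its call was lost with omission of CD replicate 2, 3 or 4 or WD replicate 3 or 4 (adjusted p up to 0.0765) and without both CD replicate 1 and WD replicate 5 (0.0508). *Tmbim6*, a calcium channel-like protein of the endoplasmic reticulum, changed by -0.13 ± 0.04, a call lost with omission of any 1 library except WD replicate 1 (adjusted p up to 0.121, and 0.127 without both CD replicate 1 and WD replicate 5).

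**Figure D3:**
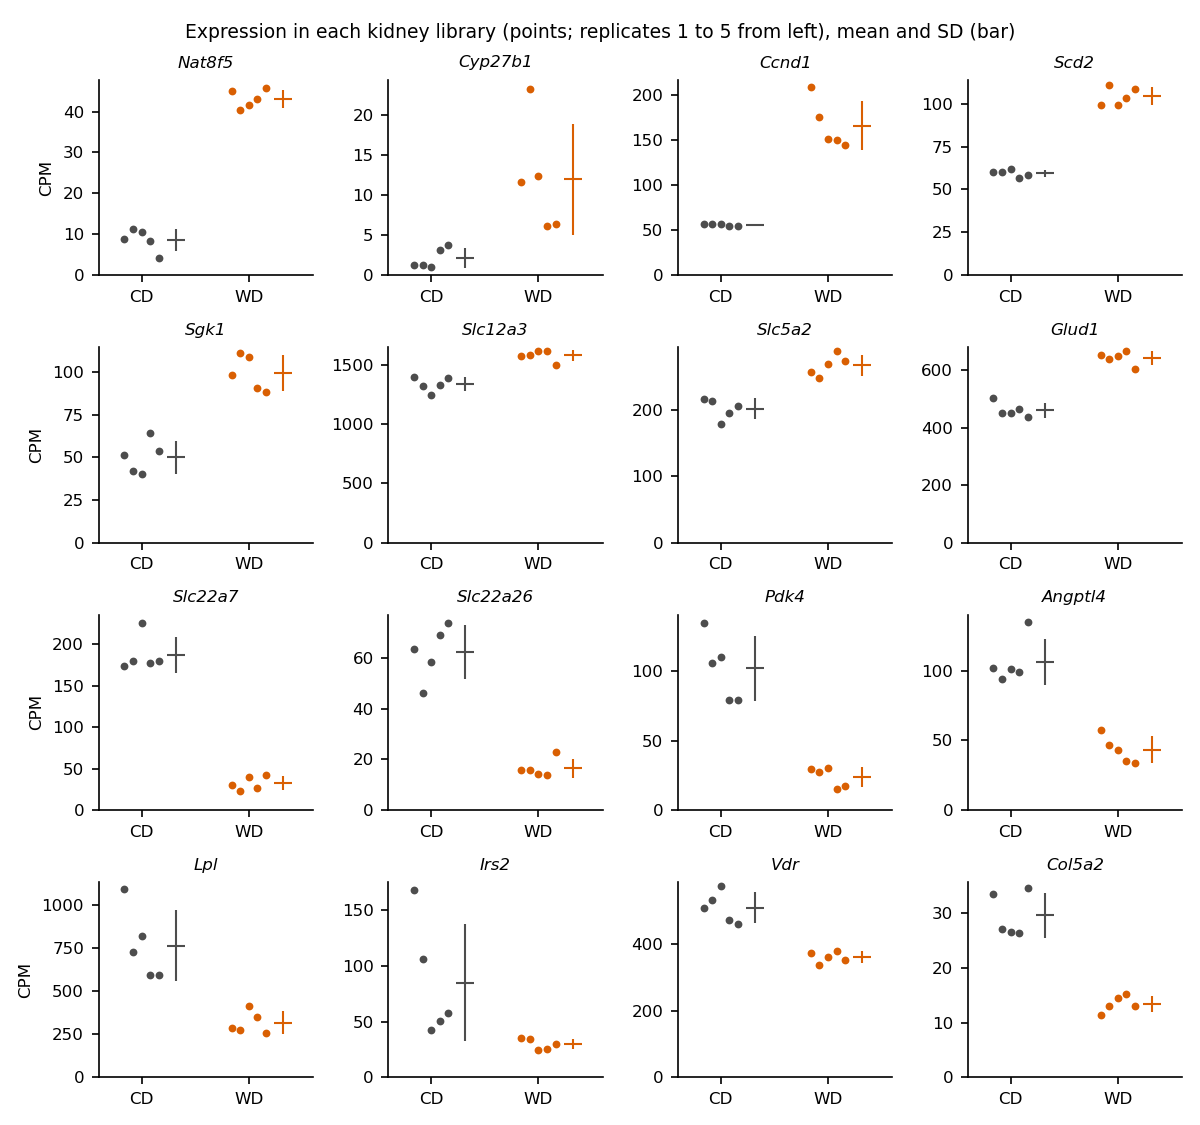
CPM of 16 genes in each library, CD in grey and WD in orange, replicates 1 to 5 from left to right, with the mean and SD (n = 5) as a bar beside them and the axis starting at 0. No WD value of these 16 genes falls within the range of the CD values. Some of them were named by a rule that requires this, so their separation was fixed by the choice. Over all genes tested, 8.7% had no overlap.

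In the filtering unit edgeR called none of the 10 podocyte markers and none of the 16 genes of the filtration barrier, with log2 fold changes from -0.28 to 0.25. Their medians, -0.02 and 0.00, took either sign as single libraries were left out. The numbers with an unadjusted p below 0.05 were 2 and 5, beside 24.9% of all genes tested, and DESeq2 called 0 and 0.

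Some genes of glucose handling in the proximal tubule rose in WD. Over all genes 9.65% were called, and each share of a list is to be read against it. Of 9 tested genes of glucose uptake, 4 rose (44.4%) and none fell, with a median of 0.25, and of 13 genes of gluconeogenesis and fructose use 7 rose (53.8%) and none fell, with a median of 0.22, against 0.0015 over all genes. *Slc5a2* (chr7:128265657-128272430, plus strand), the cotransporter SGLT2 that takes up most filtered glucose, was at 216, 213, 179, 194 and 205 CPM in CD and at 256, 247, 268, 288 and 273 CPM in WD. All WD libraries lay above all CD libraries. It differed by 0.40 ± 0.08 on the log2 scale (adjusted p = 0.00465). *Slc5a10*, a sugar transporter for mannose and fructose, was at 103 to 143 CPM in CD and at 163 to 229 CPM in WD. On the log2 scale this was a change of 0.67 ± 0.10 (adjusted p = 0.00101). *Slc2a5*, the fructose transporter GLUT5, rose by 0.47 ± 0.12, and *Slc2a4*, the insulin-responsive GLUT4, by 0.37 ± 0.06. The call of *Slc2a5* was lost without both CD replicate 1 and WD replicate 5 (adjusted p = 0.0605). *Slc5a1*, which encodes the later cotransporter SGLT1, did not pass the test (log2 fold change 0.03 ± 0.08, adjusted p = 0.854).

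Of the 13 genes of gluconeogenesis and fructose use, 11 had a positive sign. *Fbp1* (chr13:62864753-62888282, minus strand), the fructose bisphosphatase of gluconeogenesis, was at 751, 767, 749, 696 and 806 CPM in CD and at 963, 935, 932, 989.9 and 938 CPM in WD. The groups were well separated. This gave a log2 fold change of 0.34 ± 0.05 (adjusted p = 0.00143). *Slc37a4*, which carries glucose 6-phosphate into the endoplasmic reticulum, rose by 0.43 ± 0.07. *Tkfc*, a triose kinase of fructose breakdown, rose by 0.33 ± 0.06, and *Khk*, the ketohexokinase that phosphorylates fructose, by 0.22 ± 0.06. The call of *Khk* was lost with omission of CD replicate 1 or WD replicate 1 or 3 (adjusted p up to 0.0599) and without both CD replicate 1 and WD replicate 5 (0.0564). *Pck1*, which controls entry into gluconeogenesis, had no overlap between the groups, with 2878 to 3419.7 CPM in CD and 3587 to 3884 in WD, but did not pass the test (0.27 ± 0.09, adjusted p = 0.0649). Of 15 glycolysis genes 3 rose, namely *Eno1*, *Gapdh* and *Pgk1*, by 0.31 ± 0.06, 0.28 ± 0.04 and 0.17 ± 0.05, the last not with omission of CD replicate 1, 4 or 5 or WD replicate 1 or 3 (adjusted p up to 0.0744, and 0.0826 without both CD replicate 1 and WD replicate 5). Without both CD replicate 1 and WD replicate 5, 4 of the 13 gluconeogenesis and fructose genes were called, and the median was 0.20.

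Genes of ammonia production rose in part. Of 18 genes of acid-base and ammonia handling 4 rose (22.2%) and none fell, with a median of 0.098, or 0.17 with CD replicate 5 left out. *Glud1* (chr14:34310727-34345265, plus strand), the glutamate dehydrogenase that frees ammonia in the proximal tubule, was at 502, 450.1, 451, 464 and 436 CPM in CD and at 654, 638, 650.0, 668 and 604 CPM in WD. The lowest WD library was well above the highest CD library. WD minus CD was 0.48 ± 0.05 in log2 units (adjusted p = 5.61e-05). The carbonic anhydrases *Car2* and *Car12* rose by 0.27 ± 0.04 and 0.42 ± 0.09. *Slc4a1*, the anion exchanger of acid-secreting cells, did not pass (-0.21 ± 0.10, adjusted p = 0.189).

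Of 28 organic ion transporters tested 4 fell (14.3%, against 5.03% called lower over all genes) and none rose, 3 of them by more than 2-fold, and the median of the list was -0.04, or -0.01 with CD replicate 2 or with both CD replicate 1 and WD replicate 5 left out. *Slc22a26* (chr19:7781041-7802667, minus strand) was at 63.7, 46.3, 58.5, 69.1 and 74.0 CPM in CD and at 15.6, 15.9, 14.3, 13.7 and 23.1 CPM in WD. WD replicate 5 was the highest of its group and still below every CD library. In edgeR the effect was -1.92 ± 0.23 (adjusted p = 0.000157). *Slc22a19* (chr19:7673061-7711310, minus strand), its neighbour on chromosome 19, was at 97.4 to 126 CPM in CD and at 37.0 to 54.2 CPM in WD. The effect of the WD was -1.37 ± 0.17, adjusted p = 0.000226. Both belong to a row of similar organic anion transporter genes, between which reads may be split. The main basolateral transporters of organic anions did not pass: *Slc22a6* had a log2 fold change of 0.21 ± 0.08 with an adjusted p of 0.0925, and *Slc22a8* one of 0.18 ± 0.10 with an adjusted p of 0.285.

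Of 18 amino acid carriers tested, 3 fell and 1 rose (22.2% called), with a median of -0.16, and 2 were called when CD replicate 2 or WD replicate 1, 2 or 4 was left out. *Slc3a1*, the heavy subunit of the cystine carrier, was at 503 to 539 CPM in CD and at 406 to 468 CPM in WD. A log2 fold change of -0.22 ± 0.04 resulted (adjusted p = 0.00384). *Slc16a10*, an aromatic amino acid transporter, fell by 0.37 ± 0.07 on the log2 scale. Of 13 genes of protein endocytosis only *Cubn*, which encodes the receptor cubilin, was called. Its level was 668 to 800.1 CPM in CD and 537 to 684 in WD, so the groups overlapped. With its SE the change was -0.32 ± 0.07 (adjusted p = 0.00752). *Lrp2*, which encodes its partner megalin, gave -0.13 ± 0.05 with an adjusted p of 0.0987.

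Vitamin D genes moved in both directions. Of 21 genes of phosphate, calcium and vitamin D handling 4 rose and 2 fell (28.6% called). Beside the activating *Cyp27b1* above, *Vdr* (chr15:97854425-97910630, minus strand), the vitamin D receptor, was at 509, 533, 575, 473 and 462 CPM in CD and at 375, 337, 361, 380.4 and 352 CPM in WD. All WD values lay below all CD values. For *Vdr* the log2 fold change came to -0.50 ± 0.06 (adjusted p = 0.00019). *Cyp24a1*, the hydroxylase that inactivates vitamin D, was at 268, 539.8, 553, 301 and 356 CPM in CD and at 153, 172, 156, 327 and 239 CPM in WD. WD replicate 4 lay among the CD libraries, and the difference did not pass the test (-0.95 ± 0.32, adjusted p = 0.067). *Pth1r*, the parathyroid hormone receptor, rose by 0.24 ± 0.05, and *Slc34a1*, the sodium-phosphate cotransporter, gave 0.13 ± 0.06 with an adjusted p of 0.233. In the distal tubule *Calb1*, the calcium-binding calbindin, rose by 0.37 ± 0.07, and *Slc8a1*, a sodium-calcium exchanger, by 0.42 ± 0.08.

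edgeR called none of the 9 thick limb markers, 2 had an unadjusted p under 0.05, and DESeq2 called 0. *Slc12a1* and *Umod*, the salt cotransporter of this segment and its secreted uromodulin, gave -0.15 ± 0.07 and -0.14 ± 0.08 with adjusted p of 0.19 and 0.283. Of the 6 markers of the distal convoluted tubule 5 rose (83.3%) and none fell, with a median of 0.27. Their summed level was 1739 to 1959.9 CPM in CD and 2134 to 2266 CPM in WD. *Slc12a3* (chr8:94329201-94366214, plus strand), the thiazide-sensitive sodium chloride cotransporter of this segment, was at 1402, 1320.5, 1249, 1331 and 1389 CPM in CD and at 1580.1, 1588, 1621, 1615 and 1499 CPM in WD. The groups did not overlap, although the change was small. It differed by 0.24 ± 0.05 on the log2 scale (adjusted p = 0.00844). *Pvalb*, a calcium buffer that marks the early part of the segment, was at 15.2 to 17.5 CPM in CD and at 20.7 to 26.6 CPM in WD. On the log2 scale this was a change of 0.51 ± 0.07 (adjusted p = 0.000643). *Trpm6*, the magnesium channel, rose by 0.26 ± 0.08, a call lost with omission of any 1 library except CD replicate 5 or WD replicate 3 (adjusted p up to 0.107, and 0.154 without both CD replicate 1 and WD replicate 5). Of the 6, 4 were called without WD replicate 5, without CD replicate 1, and without both. Whether the segment held more cells or more RNA per cell was not tested.

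Kinases and channels that control this transport rose in part. Of 21 genes of distal sodium transport and the WNK pathway 8 rose (38.1%) and none fell, with a median of 0.14. *Sgk1* (chr10:21882184-21999903, plus strand), a kinase induced by aldosterone and glucocorticoids that favours sodium uptake, was at 51.1, 41.7, 40.0, 64.0 and 53.5 CPM in CD and at 98.4, 111, 109, 90.3 and 88.1 CPM in WD. Every WD value exceeded every CD value. This gave a log2 fold change of 0.99 ± 0.16 (adjusted p = 0.00115). *Kcnj10* and *Kcnj16*, potassium channel subunits that set the basolateral voltage, rose by 0.31 ± 0.06 and 0.21 ± 0.04. *Scnn1a*, the alpha subunit of the epithelial sodium channel, rose by 0.29 ± 0.07, while its partners *Scnn1b* (-0.07 ± 0.06, adjusted p = 0.542) and *Scnn1g* (0.00 ± 0.06, adjusted p = 0.977) did not pass. *Stk39*, the kinase SPAK, *Wnk4* and *Klhl3*, the adaptor that marks WNK kinases for breakdown, rose by 0.20 ± 0.04, 0.21 ± 0.06 and 0.27 ± 0.07. The call of *Wnk4* was lost with omission of any 1 library except CD replicate 5 (adjusted p up to 0.107, and 0.137 without both CD replicate 1 and WD replicate 5), and that of *Stk39* without both CD replicate 1 and WD replicate 5 (0.0527). *Tsc22d3*, a glucocorticoid-induced gene, gave 0.66 ± 0.21 with an adjusted p of 0.0514.

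Downstream of this segment, edgeR called none of the 9 markers of the connecting tubule and principal cells and none of the 10 of intercalated cells. The numbers with an unadjusted p below 0.05 were 0 and 5 (0% and 50%, beside 24.9% of all genes), and DESeq2 called 0 and 1. Of the 10 intercalated markers 3 were positive, with a median of -0.12. edgeR called at most 1 of them with any 1 library left out, and 2 with the replicate number as a block. *Aqp2*, the vasopressin-regulated water channel, was at 72.3 to 111 CPM in CD and 64.4 to 124 in WD. WD minus CD was -0.18 ± 0.15 in log2 units (adjusted p = 0.482). Of 13 genes of water and urea handling, *Aqp4* rose by 0.65 ± 0.16 and *Aqp7*, a glycerol channel of the late proximal tubule, fell by 0.33 ± 0.07. The call of *Aqp4* was lost without both CD replicate 1 and WD replicate 5 (adjusted p = 0.0642). Of 11 genes of the renin-angiotensin system 1 rose and 1 fell. When any 1 library other than CD replicate 2 or 3 or WD replicate 5 was left out, 1 of the 11 was called. *Anpep*, an aminopeptidase of this system, rose by 0.23 ± 0.07, a call lost with omission of any 1 library except CD replicate 2 or 3 or WD replicate 5 (adjusted p up to 0.108). *Ren1*, renin itself, was at 61.3, 50.6, 46.9, 39.2 and 61.3 CPM in CD and 97.8, 68.3, 37.6, 66.5 and 59.6 in WD. Its WD values lay on both sides of the CD values, and the difference did not pass (0.35 ± 0.20, adjusted p = 0.299).

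**Figure D4:**
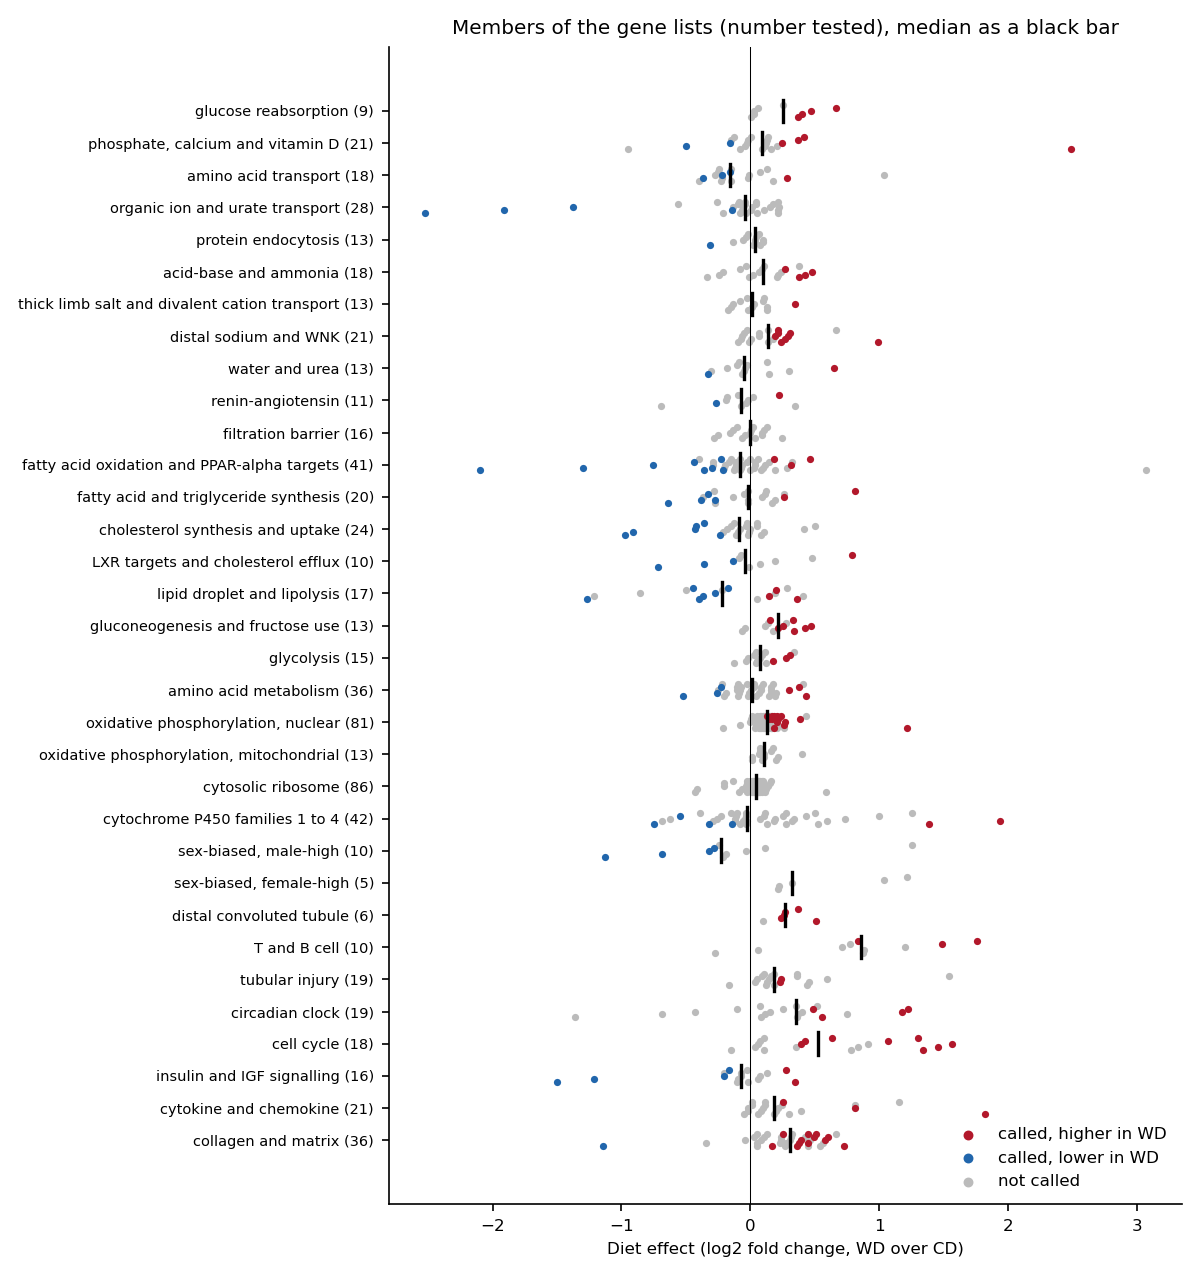
Diet effect (log2 fold change, WD over CD) of the tested members of the gene lists, each point a gene, red and blue where called higher or lower in WD, with the median of each list as a black bar. The 6 markers of the distal convoluted tubule and the 9 genes of glucose uptake all lie above 0, and the organic ion transporters hold the 3 lowest points of the nephron functions.

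Fatty acids are the main fuel of the proximal tubule, and PPAR-alpha is the receptor that switches on their oxidation in fasting. Of 41 tested genes of fatty acid oxidation and PPAR-alpha targets 8 fell and 3 rose (26.8% called). Their median of -0.08 was -0.05 with CD replicate 1 left out and -0.04 with WD replicate 4, or with both CD replicate 1 and WD replicate 5, left out. *Angptl4* (chr17:33773750-33781830, minus strand), a PPAR target that inhibits lipoprotein lipase, was at 102, 94.3, 101, 98.7 and 135 CPM in CD and at 57.6, 46.3, 43.0, 35.2 and 33.6 CPM in WD. CD replicate 5 was the highest library, and all WD values were below all CD values. In edgeR the effect was -1.30 ± 0.13 (adjusted p = 3.94e-05). *Ehhadh*, a peroxisomal enzyme of the pathway, had 707 to 1229.5 CPM in CD and 436 to 609 CPM in WD and fell by 0.76 ± 0.17. *Acot2*, *Acadm*, *Eci2*, *Slc27a2* and *Cpt1a*, enzymes and a carrier of the same pathway, fell by 0.43 ± 0.10, 0.36 ± 0.08, 0.30 ± 0.04, 0.23 ± 0.05 and 0.21 ± 0.04. The enzymes *Acaa2* and *Hadh* and the fatty acid-binding *Fabp3* rose by 0.31 ± 0.05, 0.19 ± 0.05 and 0.47 ± 0.11. *Hadh* was not called with omission of CD replicate 5 or WD replicate 1 or 3 (adjusted p up to 0.06). Without both CD replicate 1 and WD replicate 5 the calls of *Acot2*, *Acadm* and *Fabp3* were lost (adjusted p = 0.0556, 0.0654 and 0.0527). *Fabp1*, abundant in liver, was at 22.2 CPM in WD replicate 5 and at 0.105 to 1.83 in the other 9 libraries. A PPAR response element (a direct repeat, searched on both strands) stood in the promoter of 1 of the 32 tested members with a RefSeq promoter, *Fabp1*, against 0.451% of all genes.

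Of 17 tested genes of lipid storage and breakdown 6 fell and 3 rose (52.9% called), with a median of -0.22, and 4 were called without both CD replicate 1 and WD replicate 5. *Lpl* (chr8:68880491-68907448, plus strand), the lipase that frees fatty acids from circulating lipoproteins, was at 1093, 727, 819, 593 and 594 CPM in CD and at 286, 279, 416, 353 and 259 CPM in WD. CD replicate 1 was the highest, and the lowest CD value was still above the highest WD value. The effect of the WD was -1.27 ± 0.25, adjusted p = 0.00506. Adipocytes hold much *Lpl*, and their defining transcript *Adipoq* was at 0.0763 to 1.16 CPM in CD and 0.0528 to 0.672 CPM in WD (-0.90 ± 0.75, adjusted p = 0.494). Of the 8 adipocyte markers 6 were negative and *Cfd* was called (-2.47 ± 0.68, adjusted p = 0.0311), though not with omission of any 1 library except CD replicate 2 or 5 or WD replicate 4 or 5 (adjusted p up to 0.0743) nor in limma-voom. Their median of -0.57 moved between -1.40 without WD replicate 5 and 0.000095 without CD replicate 4. They summed to 34.0 to 52.3 CPM in CD and 28.8 to 78.6 CPM in WD. Their part in the change of *Lpl* was not tested. *Pnpla2* and *Lipe*, the triglyceride and hormone-sensitive lipases of the cell interior, fell by 0.45 ± 0.08 and 0.37 ± 0.06. *Plin2*, the coat protein of lipid droplets, gave 0.19 ± 0.07 with an adjusted p of 0.0953.

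Desaturases moved in opposite directions. Of 20 genes of fatty acid and triglyceride synthesis 2 rose and 4 fell (30% called). *Scd2* (chr19:44293674-44306864, plus strand), a delta-9 desaturase, was at 59.9, 60.1, 62.1, 56.9 and 58.1 CPM in CD and at 99.4, 111, 99.4, 103 and 109 CPM in WD. Its groups were tight and far apart. A log2 fold change of 0.81 ± 0.05 resulted (adjusted p = 1.66e-07). *Scd1*, its neighbour on the chromosome and the main desaturase of liver, was at 321, 202, 277, 424 and 279.6 CPM in CD and at 149.9, 189, 187, 130.4 and 511 CPM in WD. WD replicate 5, the library with the liver transcripts, was above all others, while the remaining WD libraries lay below every CD library. With all libraries the change did not pass (-0.37 ± 0.31, adjusted p = 0.507). Without WD replicate 5 it was -0.87 with an adjusted p of 0.0168, and without CD replicate 1 as well -0.85 with 0.0326. *Fads1* and *Fads2*, the delta-5 and delta-6 desaturases of polyunsaturated fatty acids, fell by 0.64 ± 0.08 and 0.27 ± 0.04. *Fasn*, fatty acid synthase, gave -0.28 ± 0.09 with an adjusted p of 0.0634.

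Several genes of cholesterol synthesis were lower in WD. Of 24 genes of cholesterol synthesis and uptake 6 fell (25%) and none rose, with a median of -0.09, or -0.06 with CD replicate 3 left out. *Idi1*, of the isoprenoid steps, was at 27.1 to 45.2 CPM in CD and at 15.7 to 23.6 CPM in WD. With its SE the change was -0.91 ± 0.15 (adjusted p = 0.00126). *Cyp51*, *Dhcr7*, *Sc5d* and *Mvk*, further enzymes of the pathway, fell by 0.42 ± 0.07, 0.36 ± 0.06, 0.23 ± 0.05 and 0.43 ± 0.10. The sterol element spelt TCACNCCAC, on either strand, was found in 1 of the 16 tested members with a RefSeq promoter, *Hmgcs1*, against 1.44% of all genes, and *Hmgcs1* did not pass (-0.02 ± 0.07, adjusted p = 0.894). Of 10 genes under the sterol receptor LXR or of efflux, *Abcg1*, a cholesterol exporter, rose, being at 4.05 to 7.43 CPM in CD and at 9.42 to 12.9 CPM in WD. For *Abcg1* the log2 fold change came to 0.79 ± 0.13 (adjusted p = 0.00165). *Soat1*, *Mylip* and *Nr1h2* fell. The call of *Mylip* was lost with omission of CD replicate 1 or 2 or WD replicate 1 or 2 (adjusted p up to 0.0645, and 0.071 without both CD replicate 1 and WD replicate 5) and that of *Nr1h2* with omission of any 1 library except CD replicate 4 or WD replicate 4 (up to 0.114, and 0.0649 without both CD replicate 1 and WD replicate 5). With CD replicate 1 or 2, or WD replicate 1 or 2 left out, 2 of the 10 were called.

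Of 16 tested genes of insulin and growth factor signalling 6 changed (37.5%), 2 upwards and 4 downwards. Beside *Irs2*, *Igfbp1*, a binding protein for insulin-like growth factors that insulin represses in liver, was at 20.5, 20.5, 20.3, 23.6 and 31.6 CPM in CD and at 8.86, 12.9, 6.53, 10.4 and 11.4 CPM in WD. WD values were below all CD values. It differed by -1.22 ± 0.22 on the log2 scale (adjusted p = 0.00245). *Igf1r* and *Insr*, the receptors, fell by 0.20 ± 0.05 and 0.16 ± 0.05. The call of *Igf1r* was lost with omission of CD replicate 1 or 5 or WD replicate 3, 4 or 5 (adjusted p up to 0.0719, and 0.0781 without both CD replicate 1 and WD replicate 5) and that of *Insr* with omission of any 1 library except CD replicate 3 or WD replicate 2 (up to 0.127, and 0.161 without both CD replicate 1 and WD replicate 5). *Pik3r1*, the regulatory subunit of PI3-kinase, rose by 0.35 ± 0.05, and *Igfbp5* by 0.28 ± 0.07.

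The clock proteins CLOCK and BMAL1 bind the E-box CACGTG and switch on their own repressors, the period and cryptochrome genes, so that transcripts of the activating and the repressing arm peak at opposite times of day. Of 19 tested 4 rose (21.1%) and none fell, with a median of 0.36. The median was 0.18 with CD replicate 3 left out and 0.23 without both CD replicate 1 and WD replicate 5, where 3 were called. *Per2* (chr1:91415982-91459324, minus strand) was at 13.9, 15.8, 12.4, 34.1 and 25.7 CPM in CD and at 57.3, 46.5, 44.1, 37.9 and 52.0 CPM in WD. CD replicates 4 and 5 were above the other CD libraries and below all WD libraries. On the log2 scale this was a change of 1.22 ± 0.26 (adjusted p = 0.00749). *Ciart*, a repressor of CLOCK and BMAL1, was at 2.15, 2.65, 2.01, 4.67 and 4.12 CPM in CD and at 5.91, 7.55, 5.33, 9.31 and 7.29 CPM in WD. It too was higher in CD replicates 4 and 5. This gave a log2 fold change of 1.18 ± 0.32 (adjusted p = 0.0284). Leaving out CD replicate 1, 2 or 3, or WD replicate 2 or 4, ended the call of *Ciart* (adjusted p up to 0.0685, and 0.0973 without both CD replicate 1 and WD replicate 5). *Hlf* and *Bhlhe40* rose by 0.49 ± 0.09 and 0.56 ± 0.14, the latter not without both CD replicate 1 and WD replicate 5 (adjusted p = 0.0626). In the activating arm *Arntl*, which encodes BMAL1, gave -0.68 ± 0.33 (adjusted p = 0.216) and *Npas2* -1.36 ± 0.44 (adjusted p = 0.0623).

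Of the 16 clock genes with a RefSeq promoter (GRCm38.p6, 250 bases before to 50 after the start), 5 held an E-box CACGTG, which reads the same on both strands, against 8.09% of all genes with a promoter, and 2 held a D-box spelt TTATGNAA on either strand, against 3.99%. The stretches upstream of the start in *Ciart*, which rose, and in *Per1*, *Cry1* and *Per3*, which did not pass, are shown as examples, with the elements in capitals. *Tef* and *Bhlhe41* held the remaining E-boxes and did not pass (0.36 ± 0.12, adjusted p = 0.0749, and 0.26 ± 0.23, adjusted p = 0.526). *Ciart* holds 3 E-boxes (chr3:95882237-95882374, minus strand), *Cry1* holds 1 (chr10:85185079-85185144, minus strand), *Per1* holds 1 E-box (chr11:69098753-69098818, plus strand) and 1 D-box (chr11:69098895-69098948, plus strand), and *Per3* holds 2 D-boxes (chr4:151044786-151044900, minus strand).
Ciart E-box: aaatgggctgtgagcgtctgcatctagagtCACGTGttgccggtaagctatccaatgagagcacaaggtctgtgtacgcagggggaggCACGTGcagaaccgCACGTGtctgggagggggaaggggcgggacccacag
Cry1 E-box: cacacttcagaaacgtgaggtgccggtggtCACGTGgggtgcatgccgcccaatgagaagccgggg
Per1 E-box: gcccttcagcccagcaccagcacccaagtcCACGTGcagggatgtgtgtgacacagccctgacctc
Per1 D-box: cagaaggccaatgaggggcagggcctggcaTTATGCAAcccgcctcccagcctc
Per3 D-box: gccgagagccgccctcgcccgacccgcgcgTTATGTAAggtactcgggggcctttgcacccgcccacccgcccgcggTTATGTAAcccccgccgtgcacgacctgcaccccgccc
*Cry1* gave a log2 fold change of 0.75 ± 0.24 (adjusted p = 0.0556), *Per1* 0.36 ± 0.24 (adjusted p = 0.38) and *Per3* 0.37 ± 0.16 (adjusted p = 0.154).

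Of 18 tested genes of the cell cycle 8 rose (44.4%), *Ccnd1* among them, and none fell, with a median of 0.53. *Mki67* (chr7:135689784-135716361, minus strand), which marks cycling cells, was at 1.65, 1.89, 2.22, 1.91 and 1.35 CPM in CD and at 3.53, 4.77, 5.09, 4.35 and 4.52 CPM in WD. The level was low in both groups and they did not overlap. WD minus CD was 1.30 ± 0.20 in log2 units (adjusted p = 0.00091). *Top2a*, *Cdk1* and *Ccnb1*, which act in S phase and mitosis, rose by 1.07 ± 0.21, 1.34 ± 0.30 and 1.45 ± 0.35, and *Mcm3*, of the replication helicase, by 0.43 ± 0.08. *Pcna*, the replication clamp, did not pass (0.10 ± 0.05, adjusted p = 0.202). Counts leaving out WD replicate 5, CD replicate 1 or both were 6 of 18 each.

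Matrix genes rose in part. Of 36 tested, 12 rose and 1 fell (36.1% called), with a median of 0.31, and 7 or 8 were called when CD replicate 1, 3 or 5 or WD replicate 1 or 2 was left out. *Col1a1* (chr11:94936224-94953042, plus strand), a chain of collagen I, was at 11.1, 10.6, 11.4, 13.0 and 8.04 CPM in CD and at 21.4, 18.8, 19.4, 14.9 and 15.01 CPM in WD. The levels were low and separate. In edgeR the effect was 0.73 ± 0.16 (adjusted p = 0.0099). *Bgn*, the proteoglycan biglycan, *Timp3*, a protease inhibitor, and *Fn1*, fibronectin, rose by 0.45 ± 0.10, 0.39 ± 0.08 and 0.58 ± 0.14. Against this, *Col5a2* (chr1:45374321-45503282, minus strand), a collagen V chain, was at 33.5, 27.0, 26.5, 26.3 and 34.5 CPM in CD and at 11.4, 13.0, 14.4, 15.2 and 13.0 CPM in WD. All WD libraries were lower than all CD libraries. The effect of the WD was -1.14 ± 0.12, adjusted p = 3.94e-05. The collagen chains *Col6a6* and *Col27a1*, given above, are not among the 36 and changed by -1.79 and 1.38. *Col3a1* and *Tgfb1*, the cytokine that drives scarring, did not pass (0.33 ± 0.14, adjusted p = 0.143, and 0.10 ± 0.07, adjusted p = 0.419). Markers of the cells that make matrix had mostly the same sign. All 7 fibroblast markers were positive, with a median of 0.33 and *Col1a1* and *Col1a2* called, the latter not with omission of CD replicate 3 or 5 or WD replicate 1 or 2 (adjusted p up to 0.0609, and 0.0501 without both CD replicate 1 and WD replicate 5), and they summed to 102 to 139.6 CPM in CD and 127 to 148 CPM in WD. Of 8 markers of mural cells 7 were positive, with a median of 0.19, and they summed to 158 to 194 CPM in CD and 185 to 262 CPM in WD. *Acta2*, the actin of smooth muscle, rose by 0.39 ± 0.11, a call lost with omission of any 1 library except CD replicate 4 or WD replicate 4 (adjusted p up to 0.0723, and 0.1 without both CD replicate 1 and WD replicate 5). The part of these cells in the matrix genes was not tested.

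Of 19 injury genes 2 rose (10.5%, against 9.65% called over all genes), *Clu* and *Vim*. Of the 19, 18 were positive with a median of 0.18, 12 had an unadjusted p below 0.05, and DESeq2 called 5. With single libraries left out edgeR called 1 to 5, the 5 without CD replicate 4. *Vim* was not called with omission of any 1 library except CD replicate 4 or WD replicate 4 (adjusted p up to 0.116, and 0.202 without both CD replicate 1 and WD replicate 5), and *Clu* not without both CD replicate 1 and WD replicate 5 (0.0546). *Havcr1*, the injury molecule KIM-1, was at 1.17 to 2.93 CPM in CD and 1.16 to 2.92 in WD and did not pass (0.15 ± 0.38, adjusted p = 0.856), and *Lcn2*, lipocalin 2, was at 2.04 to 3.56 and 2.88 to 4.42 CPM (0.45 ± 0.14, adjusted p = 0.0557). edgeR called none of the 10 macrophage markers and none of the 23 interferon-stimulated genes. Members with an unadjusted p below 0.05 numbered 4 and 3 (40% and 13.0%, beside 24.9% of all genes), and DESeq2 called 0 and 1. Among chemokines *Cxcl1*, which draws neutrophils, rose, being at 0.389 to 0.865 CPM in CD and at 1.34 to 3.22 CPM in WD. A log2 fold change of 1.83 ± 0.42 resulted (adjusted p = 0.0123). *Cxcl16* rose by 0.25 ± 0.04 and *Ccl5* by 0.81 ± 0.21, the latter not without CD replicate 2 or WD replicate 2 (adjusted p up to 0.0553). Of 10 markers of T and B cells 3 rose, and their sum was 27.9 to 57.6 CPM in CD and 42.0 to 138 CPM in WD. *Ighm*, the heavy chain of IgM, was at 11.4, 25.4, 6.54, 42.0 and 19.3 CPM in CD and at 30.0, 115, 93.6, 55.8 and 59.4 CPM in WD. WD replicates 2 and 3 were highest, and WD replicate 1 lay within the CD range. With its SE the change was 1.76 ± 0.47 (adjusted p = 0.0277). This call was lost with omission of CD replicate 1, 3 or 5 or WD replicate 2 or 3 (adjusted p up to 0.0706, and 0.0775 without both CD replicate 1 and WD replicate 5). Of these 10, edgeR called none with CD replicate 5 or WD replicate 3 left out, and 1 with CD replicate 2, 3, 4 or WD replicate 2 left out. DESeq2 on all libraries called 5.

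Of 81 nuclear genes of oxidative phosphorylation 14 rose (17.3%) and none fell, 78 of the 81 had a positive sign, and the median was 0.13. The number called moved with single libraries, from 5 without CD replicate 1, WD replicate 3 or WD replicate 4 to 30 without CD replicate 3, and was 6 without WD replicate 1, 7 without CD replicate 4 or WD replicate 5, 29 without WD replicate 2 and 3 without both CD replicate 1 and WD replicate 5. DESeq2 called 28. *Cox6a2*, a subunit of complex IV typical of muscle, was at 0.516 to 1.501 CPM in CD and at 1.56 to 3.44 CPM in WD. *Atp5g1*, of the ATP synthase, was at 147 to 163 CPM in CD and at 166 to 199 CPM in WD, and its call was lost without both CD replicate 1 and WD replicate 5 (adjusted p = 0.0631). edgeR called none of the 13 genes of the mitochondrial genome and none of the 86 of the cytosolic ribosome, with medians of 0.10 and 0.04, or 0.06 with WD replicate 3 left out and 0.01 with CD replicate 1 left out. Members with an unadjusted p below 0.05 numbered 2 and 4, and DESeq2 called 2 and 0.

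Many genes of the mouse kidney differ between the sexes under the control of androgens. Of 10 genes known to be higher in males 4 fell (40%) and none rose, with a median of -0.23, or -0.13 with CD replicate 2 left out, and edgeR called none of 5 genes higher in females, with a median of 0.32, 3 of which had an unadjusted p under 0.05 and 0 of which DESeq2 called. The median of these 5 was 0.61 without CD replicate 1 and 0.77 without both CD replicate 1 and WD replicate 5, and edgeR called 2 with CD replicate 4 left out. *Kap* (chr6:133849851-133853762, minus strand), an androgen-regulated protein of the proximal tubule, was at 19561, 22265, 22228, 19634 and 19155 CPM in CD and at 16579, 14983, 18074, 18129.6 and 17019 CPM in WD. The groups did not overlap. For *Kap* the log2 fold change came to -0.28 ± 0.08 (adjusted p = 0.0359). With CD replicate 2 or 3, or WD replicate 1, 2 or 5 left out, the call was lost (adjusted p up to 0.088, and 0.0854 without both CD replicate 1 and WD replicate 5). *Acsm3*, a medium-chain acyl-CoA synthetase, was at 183 to 420.4 CPM in CD and at 108 to 181 CPM in WD. It differed by -1.13 ± 0.28 on the log2 scale (adjusted p = 0.0185). *Cyp2e1*, a cytochrome P450 that oxidises ethanol, fell by 0.32 ± 0.09, and *Cyp7b1*, an oxysterol hydroxylase, by 0.68 ± 0.18. The call of *Cyp2e1* was lost with omission of any 1 library except CD replicate 3 or 4 or WD replicate 4 (adjusted p up to 0.0975, and 0.0914 without both CD replicate 1 and WD replicate 5), and that of *Cyp7b1* with omission of CD replicate 2 or 3 or WD replicate 2, 3 or 4 (up to 0.0665). *Cyp4a12a*, another male-high gene, had the opposite sign (1.26 ± 0.43, adjusted p = 0.0763). *Cyp4a12b*, given among the rises above, is not in this list and rose by 1.39 (adjusted p = 0.0143), so the absence of a rise holds for the listed genes only. Of the 10, 2 were called with CD replicate 2 or 3, or WD replicate 1, 3 or 5 left out, and 1 with WD replicate 2 left out. All mice were male, and androgen levels were not part of these data.

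Kidney effects were set against the same diets in gastrocnemius, a leg muscle, which had 5 libraries per diet. Of 18708 genes tested for a difference of the diet effect between the tissues, 799 were called (4.27%), 45.6% of them with a higher effect in kidney. With total counts as the scale 1372 were called and 17.3% were higher, and the median of all genes moved to -0.084. In gastrocnemius alone 1330 of 15419 genes were called (8.63%). Of the 1331 genes called in kidney that were tested in both tissues, 291 had a diet effect that differed between tissues, 160 were also called with the same sign in gastrocnemius and 46 with the opposite sign. Of the 24 rises and falls named above 11 were tested in both tissues, and 8 of them differed. The 1331 and the 24 genes were chosen by their effect in kidney, which favours a difference, so these counts are descriptions and no rate. *Cpe* fell by 1.54 ± 0.23 in kidney and was at 0.05 ± 0.06 in gastrocnemius, a difference of -1.59 ± 0.25 (adjusted p = 0.000174). *Ccnd1* rose by 1.56 ± 0.16 in kidney against 0.43 ± 0.16, a difference of 1.14 ± 0.25 (adjusted p = 0.00578). *Pdk4* fell in both, by 2.10 ± 0.25 and 0.76 ± 0.15, and differed by -1.34 ± 0.31 (adjusted p = 0.00883). *Irs2*, *Per2* and *Mki67* did not pass the test of the difference, at -1.05 ± 0.37 (adjusted p = 0.11), 0.36 ± 0.48 (adjusted p = 0.777) and 0.71 ± 0.40 (adjusted p = 0.363).

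**Figure D5:**
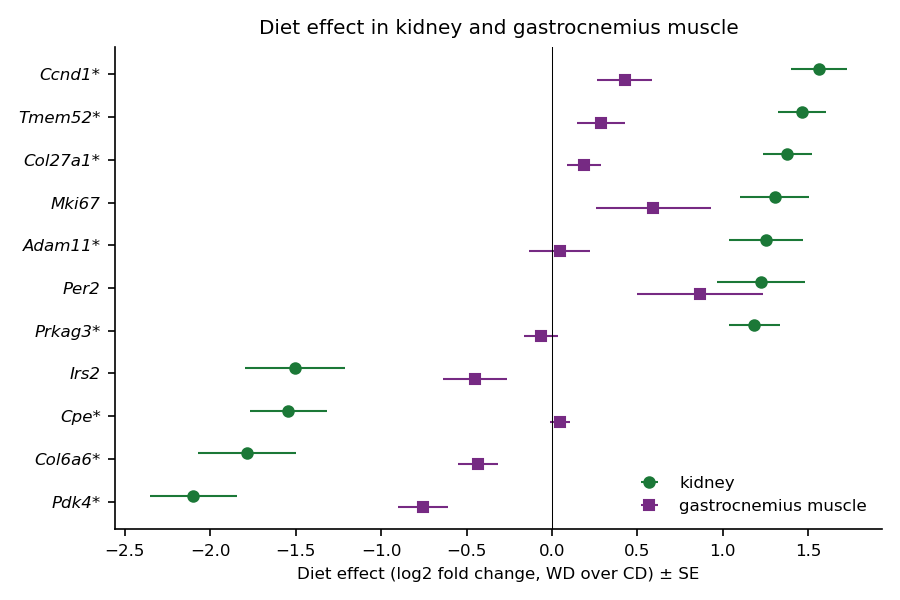
Diet effect (log2 fold change, WD over CD, with its SE as a bar) in kidney (green circles) and gastrocnemius (purple squares) of the 11 named rises and falls tested in both tissues. An asterisk marks the 8 genes whose effect differed between tissues, among them Cpe and Adam11, which lie near 0 in muscle.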

How the data were processed

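RNA from kidneys was sequenced on a BGISEQ platform, 1 library per mouse. The authors deposited a table of raw read counts per gene for each tissue. The submitters' processing notes name STAR 2.7.3a and GRCm38/mm10, and the counting tool, its strand setting and any filter are not given in the sources used here. Columns were matched to samples by their headers. Of 54838 genes in the table, 17120 passed edgeR's filter (minimum count 10) and held 99.93% of counts. Total counts ranged from 37452693 to 38211422. All 15 kidney libraries (CD, WD and WD+CHP, 5 each) entered 1 fit (edgeR 4.0.16 in R 4.3.3, TMM scaling, quasi-likelihood test, Benjamini-Hochberg adjustment over all genes), and WD was contrasted with CD. A gene is called at an adjusted p under 0.05. The ± values are standard errors. The tissue contrast used all 30 libraries of the same 3 groups in kidney and gastrocnemius. Alternatives used DESeq2 1.42.0, limma 3.58.1, other scalings and filters, a replicate block, a length and GC correction and left-out libraries.

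On simulated data with known changes the kidney fit called 63% of genes changed by 0.5 and 91.9% of those changed by 1 on the log2 scale, with 10 unchanged genes called among 16969. The simulation drew each gene independently, changed far fewer genes than were called here and held no library that stood apart. These shares may therefore not hold for the real libraries. Named genes were the 12 greatest rises and 12 greatest falls, the 8 most abundant called genes, up to 4 called members per list, and a set of anchor genes of the nephron and of the diet response. A few genes that this rule names are not reported here. Further members were named to complete a count or a role and were chosen after their values were seen. The comparison, the members and the lists were chosen with earlier results of these data known. Separate mice are the replicates, and the p-values measure the spread between them.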

Additional observations from a re-analysis of the deposited data

Results flagged for a closer look

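In 19 of 300 groups of 5 libraries 1 library lay apart by Dixon's ratio, its gap to the nearest library over the range of the group (critical value 0.71). Chance alone gives about 1 in 20 such groups. CD replicate 1 stood apart for *Slc7a8* (343 CPM against 246 to 259.7, ratio 0.859). CD replicate 3 stood apart for *Slc22a7* (226 CPM against 174 to 180.3, ratio 0.872), *Slc5a10* (143 CPM against 103 to 110.3, ratio 0.822) and *Abcg1* (4.05 CPM against 6.65 to 7.43, ratio 0.77). CD replicate 4 stood apart for *Ces1g* (48.1 CPM against 16.5 to 24.4, ratio 0.75), *Slc3a1* (539 CPM against 503 to 511, ratio 0.759), *Car2* (272 CPM against 287 to 291, ratio 0.795) and *Bgn* (199 CPM against 138 to 153, ratio 0.758). CD replicate 5 stood apart for *Angptl4* (135 CPM against 94.3 to 102, ratio 0.819), *Dgat2* (154 CPM against 141 to 144, ratio 0.741) and *Igfbp1* (31.6 CPM against 20.3 to 23.6, ratio 0.71). WD replicate 1 stood apart for *Slc5a10* (229 CPM against 163 to 180.1, ratio 0.742), *Slc2a5* (156 CPM against 120.0 to 128, ratio 0.77) and *Acaa2* (148 CPM against 136 to 138, ratio 0.821). WD replicate 4 stood apart for *Serpina1a* (21.1 CPM against 37.5 to 40.1, ratio 0.864). WD replicate 5 stood apart for *Slc22a26* (23.1 CPM against 13.7 to 15.9, ratio 0.762), *Cyp2j9* (9.92 CPM against 11.1 to 11.4, ratio 0.755), *Cyp2c38* (1.40 CPM against 0.264 to 0.501, ratio 0.79) and *Scd1* (511 CPM against 130.4 to 189, ratio 0.845).

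The diet effect differed between kidney and gastrocnemius for 8 of the 11 named rises and falls tested in both tissues, by the test of the difference in edgeR. Over all genes 4.27% differed. These genes were chosen for their large effect in kidney, which favours a difference, so the count is a description. Kidney minus gastrocnemius on the log2 scale was 1.14 for *Ccnd1* (adjusted p = 0.00578), 1.18 for *Tmem52* (adjusted p = 0.0012), 1.19 for *Col27a1* (adjusted p = 0.000424), 1.21 for *Adam11* (adjusted p = 0.0342), 1.25 for *Prkag3* (adjusted p = 0.000115), -1.34 for *Pdk4* (adjusted p = 0.00883), -1.35 for *Col6a6* (adjusted p = 0.0105) and -1.59 for *Cpe* (adjusted p = 0.000174). Whether the kidneys and muscles came from the same mice is not given in the sources used here.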

How the results depend on the processing

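The count of 1652 kidney genes ranged from 1354 to 2029 under the other tools, scalings, filters and corrections. With single libraries left out it ranged from 1142 to 1744, with 563 to 867 higher and 573 to 877 lower in WD, the 573 without WD replicate 3. Leaving out both CD replicate 1 and WD replicate 5, an alternative chosen after seeing the data, gave 1051 genes, 504 higher and 547 lower. Fewer samples enter these fits. Total counts as the scale gave 1372 genes that differed between tissues against 799, and the cause was not tested. With the replicate number as a block 1582 genes were called in kidney. Same-numbered libraries correlated at -0.0907 to 0.144, and 1 of 5 correlated best with its own number. These values gave no sign of pairing by number, but 5 correlations are too few to decide it. For the difference between tissues *Cyp4a12b* went from -1.28 to 0.890 and *Akr1c18* from 0.404 to -0.169 in limma-voom, and the cause was not tested. For this difference, 385 values of named genes kept direction and side of the threshold, 5 lost their call and 2 gained one. Of the values of named genes in kidney under the alternatives, 2842 kept their direction and side of the threshold, 280 lost their call and 26 gained one. Apart from left-out libraries, the calls of *Akr1c18* and *Cfd* were lost in limma-voom, that of *Anpep* with the length and GC correction, that of *Vim* with total counts, those of *Nr1h2* and *Tmbim6* without the filter on low counts, and those of *Nr1h2*, *Tmbim6* and *Vim* in the fit of CD and WD alone. With the block *Akr1c18*, *Cyp2e1*, *Cyp7b1*, *Fga*, *Nr1h2* and *Tmbim6* lost theirs.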
